A study of Mus musculus with 12 samples.

Results

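The 42 genes described here encode proteins of the sarcomere, the contractile unit of striated muscle, and of the Z-disc that anchors it. They were taken by gene symbol from the annotation of an Agilent mouse expression array, with every non-control probe that carried the symbol, which gave 88 of the 56605 probes on the array. Of these, 84 had a positive and significant signal on enough arrays of all 4 groups to be tested, as did 30859 probes of the whole array, and the brightest probe of all 42 genes was among them. The genes were sorted by their known use into 8 thick filament and 7 thin filament genes of the adult heart, 13 genes of the Z-disc and of desmin, 3 fetal isoforms, 2 atrial isoforms and 9 isoforms of skeletal muscle.

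RNA came from heart muscle of 12 male C57BL6/J mice aged 5 months, with 1 array per mouse and 3 mice in each of 4 groups. Mice of the groups D and D+P had been made diabetic from 6 to 7 weeks of age with intraperitoneal streptozotocin, a toxin that destroys insulin-producing β-cells, in 5 daily doses of 50 mg/kg, and counted as diabetic from a blood glucose of 17 mM. Those of C+P and D+P then received pargyline, an inhibitor of the hydrogen peroxide-forming monoamine oxidases of mitochondria, for 12 weeks in a daily dose of 50 mg/kg. C and D mice were given vehicle instead. All groups share strain, sex and age, the diabetes is a chemical loss of insulin, and the sources do not name the heart chamber that was sampled.

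In the sarcomere, myosin thick filaments pull on actin thin filaments when calcium binds the troponin complex. Titin spans the sarcomere from Z-disc to M-band and holds the thick filament in place. The mouse ventricle changes isoforms after birth, replacing β-myosin (*Myh7*) with the faster α-myosin (*Myh6*), skeletal α-actin (*Acta1*) with cardiac α-actin (*Actc1*), and slow skeletal troponin I (*Tnni1*) with cardiac troponin I (*Tnni3*). A return of *Myh7* and *Acta1* in the adult heart is a widely used sign of cardiac stress, and hearts with low insulin or low thyroid hormone are known to make more *Myh7*.

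Values are log2 intensities after quantile normalisation between arrays, so that 1 unit is a doubling, and the level of one probe cannot be set against that of another. Each array had between 23556 and 29231 of its 59305 non-control spots well above background, and 0 spots were saturated. C and D arrays lay on one slide and C+P and D+P arrays on another, so pargyline and slide cannot be told apart, while diabetic and non-diabetic mice differed in slide row. The 3 arrays in the first column of a slide (C+P 1, D 1 and D+P 1) had the widest spread between repeated spots, with a median coefficient of variation of 22.3%, 35.3% and 25.7%. Over the 42 genes the median SD within a group was lowest for C at 0.12, followed by C+P at 0.16, D at 0.22 and D+P at 0.27. Of 9 atrial markers, *Sln*, *Bmp10* and *Mybphl* were well above background, a stricter mark than that of the filter, on 0 of 12 arrays. *Nppa*, *Tbx5* and *Kcnj3* were so on 12 arrays, *Stard10* on 11, *Dkk3* on 10 and *Fgf12* on 3. The 8 general markers of heart muscle cells were all tested, with a median change in diabetes of -0.12.

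Diabetes was read in both pairs of groups and as the mean of the pairs, which is called diabetes averaged over pargyline. Only 1 member probe passed an adjusted p of 0.05 in any of the 6 contrasts, a probe for *Myl1* that fell when diabetes was averaged over pargyline, where 0.107% of all tested probes passed. No member passed in D against C (0.00648% of all tested probes), D+P against C+P (0.0454%), D+P against D (0%), C+P against C (0.0324%) or the interaction (0.00648%). Among the brightest probes of the 42 genes, an unadjusted p under 0.05 was reached by 5 in D against C (*Myh7*, *Myl7*, *Myom2*, *Tnni2* and *Tnnt1*), by 10 for D+P against C+P and by 10 in diabetes averaged over pargyline. The shares of all tested probes that did so were 10.8%, 7.46% and 11.4%. The averaged contrast had 3 of the 10 higher and 7 lower in diabetes, against 5.93% higher and 5.46% lower over all probes. The groups did not overlap for 14 genes in D against C and for 12 for D+P against C+P, where 22.3% and 13.9% of all probes did not overlap. Both pairs were free of overlap in the same direction for 6 genes, 2 higher (*Myh7* and *Myom2*) and 4 lower (*Myl1*, *Tnni2*, *Tnnt1* and *Myot*), while 2.5% of all probes met this, 1.21% higher and 1.29% lower. The split of the 42 genes depended on the scaling between arrays: in D against C 19 were higher and 23 lower, but 28 higher and 14 lower under 75th percentile scaling. That scaling gave 32 higher and 10 lower in C+P against C (23 and 19 otherwise), and 5 higher and 37 lower in the interaction (13 and 29 otherwise). Of the 42 brightest probes, none called in the fit over all arrays, 29 had an averaged change that moved by more than 1.5 times or turned its sign when some single array was left out, and in 9 of them the sign turned.

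**Figure D1:**
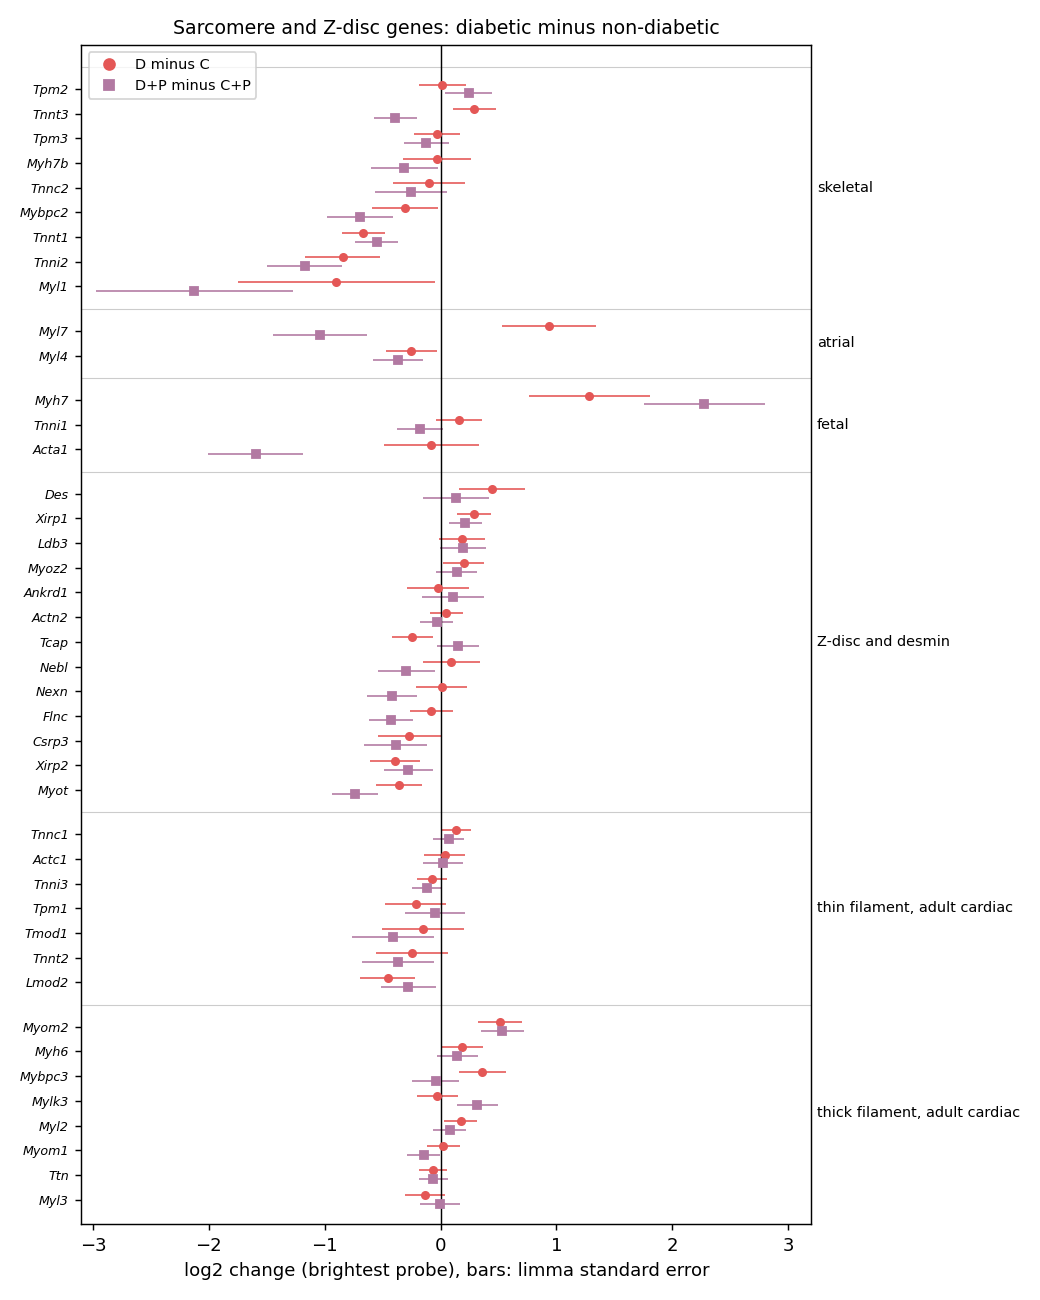
Change of each of the 42 genes with diabetes (brightest probe, log2), without pargyline as circles and with pargyline as squares, with standard errors as bars, sorted by class. *Myh7* stands at 1.28 and 2.28, *Myl1* at -0.90 and -2.13 (the latter is -0.79 without D+P 3), and most adult cardiac genes lie close to 0.

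*Myh7*, the β-myosin heavy chain, had the largest positive difference of the 42 genes in averaged diabetes. Its brightest probe (chromosome 14, 55589581 to 55589640, mm9) read 11.44, 11.87 and 11.48 on the C arrays and 11.21, 11.48 and 11.54 on the C+P arrays. Diabetic hearts gave 13.83, 12.06 and 12.76 in D and 12.42, 14.35 and 14.29 in D+P. All 6 diabetic hearts exceeded all 6 others, and the diabetic hearts ranged widely, with D 2 and D+P 1 lowest in their groups. The change was 1.28 in D against C (SE 0.53, adjusted p 0.431), 2.28 for D+P against C+P (SE 0.53, adjusted p 0.258) and 1.78 in diabetes averaged over pargyline (SE 0.37, adjusted p 0.134), the last a 3.44-fold difference. It did not pass the threshold in the limma fit over all arrays, but did without D+P 1 (2.10, adjusted p 0.0254) and without the 3 arrays of slide column 1 (1.81, adjusted p 0.0362). With any single array other than D+P 1 left out it did not pass (adjusted p up to 0.304). In D against C it was smaller without D 1 (0.81), with array weights (0.56) and as the mean of both probes (0.57). More β-myosin RNA per cell and more cells that carry it cannot be told apart in such samples. A dimmer second probe, designed to an Ensembl transcript of *Myh7* that is no curated mRNA, was 1.37 higher for D+P against C+P without overlap (adjusted p 0.543) and -0.14 in D against C.

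*Myh6*, the α-myosin heavy chain of the adult mouse ventricle, gave different signs on its 2 probes. The brightest read 17.41, 17.17 and 17.26 on C arrays, 17.01, 17.61 and 17.18 on C+P arrays, 17.35, 17.51 and 17.51 on D arrays and 17.46, 17.22 and 17.55 on D+P arrays. The groups overlapped in both pairs, and the averaged change was 0.16 (SE 0.13, adjusted p 0.652), or 0.28 under 75th percentile scaling and -0.06 with normexp background correction. This probe ranked from 3 to 31 in brightness among the 56605 probes of each array. Quantile normalisation gives a rank the same value on every array, which limits how far arrays can differ at the top of the range. The second probe read 13.50, 13.88 and 13.74 on C arrays, 13.39, 13.83 and 13.97 on C+P arrays, 13.31, 13.14 and 13.23 on D arrays and 14.07, 13.34 and 13.22 on D+P arrays. There D lay below C without overlap, at -0.48 (SE 0.24, adjusted p 0.492), the pargyline groups overlapped, and the averaged change was -0.33 (SE 0.17, adjusted p 0.492). *Myh7b*, an ancient myosin of slow muscle, stood at -0.17 (adjusted p 0.779).

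The balance of *Myh7* over *Myh6* was formed within each array and set to 0 at the mean of C, with no test. It was -0.28, 0.38 and -0.10 on the C arrays, -0.12, -0.44 and 0.04 in C+P, 2.15, 0.22 and 0.93 in D, and 0.64, 2.81 and 2.42 in D+P. The balance lay higher in D than in C by 1.10, with D 2 inside the range of C, and above C+P in D+P hearts by 2.13 with no overlap. Without D 1 the first of these differences was 0.57.

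The genes for both myosins lie side by side on chromosome 14. Their promoters are shown because *Myh7* was higher on every diabetic array, while the groups overlapped in both pairs on the brightest *Myh6* probe. Each window spans 300 bases, of which the last 50 follow the start site (RefSeq, GRCm38.p6, minus strand, chr14:54994577-54994876 for the upstream of 2 *Myh7* start sites in the table, chr14:54966558-54966857 for *Myh6*). Capitals mark matches on either strand to the M-CAT element CATTCC, which binds TEAD factors, and to a TATA element spelled TATAAA.

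Myh7: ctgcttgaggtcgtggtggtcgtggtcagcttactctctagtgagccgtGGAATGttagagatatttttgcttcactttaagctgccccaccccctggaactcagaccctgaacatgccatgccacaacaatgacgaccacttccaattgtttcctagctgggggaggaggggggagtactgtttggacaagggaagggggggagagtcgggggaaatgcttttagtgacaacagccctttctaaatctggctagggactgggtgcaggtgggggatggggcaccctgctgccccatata
Myh6: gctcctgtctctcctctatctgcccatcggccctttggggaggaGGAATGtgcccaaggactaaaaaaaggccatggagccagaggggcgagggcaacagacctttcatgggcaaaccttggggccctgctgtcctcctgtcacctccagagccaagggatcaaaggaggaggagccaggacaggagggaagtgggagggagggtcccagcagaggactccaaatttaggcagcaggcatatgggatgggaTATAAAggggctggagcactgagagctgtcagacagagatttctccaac

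Each window holds 1 M-CAT match, at position -201 from the start site in *Myh7* and at -206 in *Myh6*. Of these only the *Myh6* window holds the letters TATAAA, which begin at position 1, 1 base past the annotated start. Of 32851 promoter windows in the table, 14.7% hold an M-CAT match and 13.6% the TATA letters. The table holds 47 windows for 35 of the 42 genes, and 17 of the 47 have an M-CAT match. A CArG box, the binding motif of serum response factor, was found in 8 of the 47 windows and in 1.63% of all windows. A match is only a run of letters, and neither a CArG box nor a MEF2 box was found in the windows printed here.

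**Figure D2:**
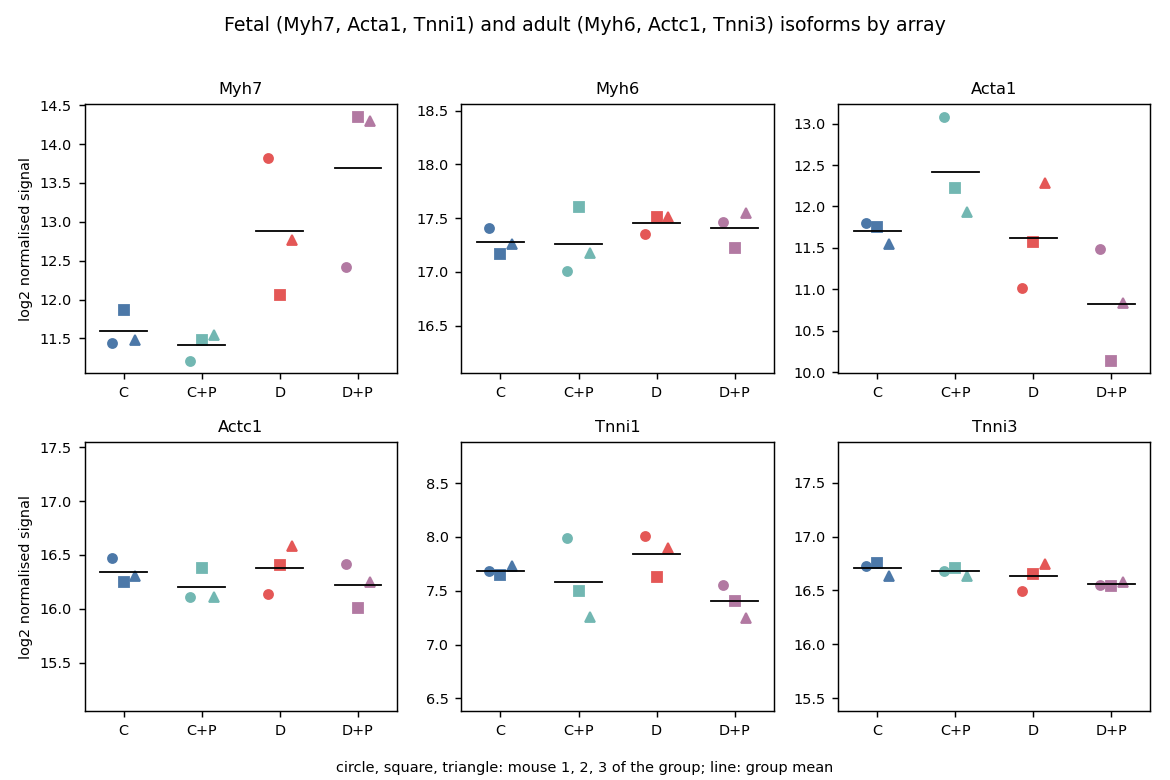
Level of 3 fetal isoforms and of their 3 adult counterparts on each array (log2 normalised signal, brightest probe, 3 mice a group, lines at the group means). *Myh7* is higher on every diabetic array, *Acta1* is lower on every D+P than on every C+P array, and the groups overlap in both pairs for *Myh6* and *Actc1*. *Myh6* is among the brightest probes of every array, where quantile normalisation limits how far arrays can differ.

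Of the light chains and partners of myosin, those of the ventricle had small differences. *Myl2*, the regulatory light chain of the ventricle, read 17.30, 17.22 and 17.31 on C arrays, 17.31, 17.55 and 17.29 on C+P arrays, 17.49, 17.39 and 17.49 on D arrays and 17.49, 17.29 and 17.61 on D+P arrays. All 3 D arrays were above all 3 C arrays by a small margin, the pargyline groups overlapped, and the averaged change was 0.13 (SE 0.10, adjusted p 0.659), or 0.22 under 75th percentile scaling and -0.06 with normexp. Its probe ranked from 3 to 18, and the same limit applies. *Myl3*, the essential light chain, stood at -0.07, and *Ttn*, which encodes titin, at -0.06 on its brightest of 6 probes. All 6 *Ttn* probes were lower on average. The second brightest was lower without overlap in both pairs, with means of 14.56 in C, 14.32 in D, 14.60 in C+P and 14.42 in D+P. *Mylk3*, the kinase of the regulatory light chain, stood at 0.15, and *Mybpc3*, the cardiac myosin-binding protein C, at 0.16. On its brightest probe none of these genes had an averaged adjusted p under 0.6.

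*Myom2*, a crosslinker of thick filaments at the M-band, stood out in this class on its brightest probe. It read 15.78, 15.93 and 15.83 on C arrays, 15.88, 15.92 and 15.64 on C+P arrays, 16.40, 16.36 and 16.31 on D arrays and 15.92, 16.60 and 16.51 on D+P arrays (chromosome 8, 15133322 to 15133381, mm9). Every diabetic array was above every non-diabetic array of its pair, though D+P 1 only just. The change was 0.51 in D against C, 0.53 for D+P against C+P and 0.52 averaged (SE 0.13, adjusted p 0.198). It passed the threshold without D+P 1 (0.62, adjusted p 0.0458), but with none of the other 11 arrays left out. A dimmer second probe, designed to an Ensembl transcript, overlapped in both pairs. Its change was 0.05 in D against C (adjusted p 0.977), and its means were 9.70 in C+P and 10.74 in D+P. *Myom1*, the related M-band protein, was at -0.06 (adjusted p 0.843). Over the 8 adult thick filament genes, 5 were above and 3 below 0 in the averaged contrast, with a median change of 0.14 (0.03 with normexp and 0.21 under 75th percentile scaling), while the median over all tested probes was -0.01. In D against C the class had 5 of 8 higher with a median of 0.10, but 8 of 8 with a median of 0.29 under 75th percentile scaling.

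Neither atrial light chain was higher in both diabetic groups. *Myl4*, the essential light chain of the atrium, read 7.77, 8.30 and 8.18 on C arrays, 8.13, 8.04 and 8.33 on C+P arrays, 7.95, 7.48 and 8.07 on D arrays and 8.08, 7.76 and 7.54 on D+P arrays. The groups overlapped and the averaged change was -0.31 (SE 0.15, adjusted p 0.482), with the same value of -0.31 on a second probe. *Myl7*, the regulatory light chain of the atrium, was well above background on only 1 of 3 arrays in each group. Its values were 4.46, 4.76 and 5.21 on C arrays, 5.87, 5.06 and 5.91 on C+P arrays, 5.60, 6.09 and 5.55 on D arrays and 4.96, 5.17 and 3.59 on D+P arrays. D lay above C without overlap and D+P below D without overlap, near the floor of the measurement, and the averaged change was -0.05 (SE 0.29, adjusted p 0.962). Of the 9 atrial markers 6 were tested and 3 lay at background, as given above. The mean level of the 6 ran from 8.07 to 8.17 on C arrays, 8.12 to 8.21 on C+P arrays, 8.59 to 8.81 on D arrays and 7.38 to 8.62 on D+P arrays, with 4 of 6 higher in diabetes averaged over pargyline, a smallest adjusted p of 0.055 and D+P 3 lowest. The 5 tested ventricular markers ran from 8.36 to 8.57 on C arrays, 8.09 to 8.42 on C+P arrays, 8.90 to 9.07 on D arrays and 8.46 to 8.71 on D+P arrays, with 4 of 5 higher in averaged diabetes and 1, *Kcnip2*, past the threshold (0.77, adjusted p 0.0423). All 5 immune markers were lower in averaged diabetes, 3 with an unadjusted p under 0.05 and a smallest adjusted p of 0.256. The part of these markers in the values of the members was not tested.

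In the thin filament cardiac actin and cardiac troponin I had small differences. *Actc1*, the cardiac α-actin, read 16.48, 16.25 and 16.31 on C arrays, 16.11, 16.38 and 16.11 on C+P arrays, 16.14, 16.41 and 16.59 on D arrays and 16.42, 16.00 and 16.25 on D+P arrays, with overlap throughout and a mean change over both pairs of 0.03 (SE 0.12, adjusted p 0.950), or -0.09 with normexp. *Tnni3* read 16.73, 16.76 and 16.64 on C arrays, 16.68, 16.71 and 16.64 on C+P arrays, 16.49, 16.66 and 16.74 on D arrays and 16.55, 16.54 and 16.57 on D+P arrays. D+P lay below C+P without overlap by 0.12, a small step, the averaged change was -0.10 (SE 0.09, adjusted p 0.713), and a second probe was at 0.12.

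*Tnnc1*, the calcium-binding troponin C, stood at 0.10, *Tpm1*, the main tropomyosin of the heart, at -0.13 (0.05 without D 1), and *Tnnt2*, the cardiac troponin T, at -0.31 (-0.14 without D 1). The brightest *Tnnt2* probe read 15.95 on D 1 and 15.94 on D+P 1, and between 16.74 and 17.04 on the other 10 arrays. All 3 probes of *Tnnt2* were lower on average, none past the threshold. Both proteins that cap or lengthen the pointed end of the thin filament were lower on average, *Lmod2* at -0.37 (adjusted p 0.446) and *Tmod1* at -0.28 (adjusted p 0.701, and -0.12 without D 1), but a second *Tmod1* probe was at 0.37. Of the 7 adult thin filament genes 2 were above and 5 below 0, none with an unadjusted p under 0.05, and the median change was -0.13.

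*Acta1*, the skeletal α-actin that the fetal heart expresses, did not follow *Myh7*. The C arrays read 11.80, 11.76 and 11.55, C+P 13.08, 12.23 and 11.93, D 11.02, 11.58 and 12.28, and D+P 11.49, 10.13 and 10.84. C+P lay above C, and D+P below C+P, in each case without overlap, while D surrounded C. The change was -0.08 in D against C (SE 0.41, adjusted p 0.958), -1.60 for D+P against C+P (SE 0.41, adjusted p 0.352) and -0.84 averaged (SE 0.29, adjusted p 0.335). The sign in D against C turned under 75th percentile scaling, to 0.04. The balance of *Acta1* over *Actc1* within arrays differed by -1.62 between D+P and C+P with no overlap, and by -0.11 between D and C. The latter ran from -0.33 without D 3 to 0.07 without D 1.

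*Tnni1*, the slow troponin I of the fetal heart, read 7.69, 7.64 and 7.73 on C arrays, 7.99, 7.50 and 7.25 on C+P arrays, 8.01, 7.63 and 7.90 on D arrays and 7.55, 7.40 and 7.25 on D+P arrays. The diabetic and non-diabetic groups overlapped in both pairs, and the averaged change was -0.01 (SE 0.14, adjusted p 0.987). A dimmer second probe also overlapped, at -0.62 in D against C (adjusted p 0.823) and -0.90 for D+P against C+P (adjusted p 0.849). The balance of *Tnni1* over *Tnni3* differed by 0.23 in D against C and by -0.06 for D+P against C+P, in both cases with overlap. The first was 0.08 without D 1, and the second ran from -0.21 without C+P 3 to 0.14 without C+P 1. Of the 3 fetal isoforms 1 was therefore higher on all diabetic arrays, and the other 2 were not.

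Skeletal muscle isoforms were mostly lower in the diabetic hearts. The averaged change was below 0 for 8 of the 9 genes of the class with a median of -0.18, while 48.5% of all tested probes were above 0. An unadjusted p under 0.05 was reached by 4 of the 9, all lower (11.4% of all tested probes had one, 5.46% lower). The class counted 7 of 9 lower in D against C (5 of 9 under 75th percentile scaling) and 8 of 9 for D+P against C+P. Most of these isoforms are best known from skeletal muscle.

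*Myl1*, the essential light chain of fast muscle, held the member probe that passed the threshold. This probe (chromosome 1, 66971597 to 66972798, mm9, a span wider than the 60 bases of a probe) read 11.34, 11.13 and 10.71 in C and 11.28, 11.17 and 10.99 in C+P. It read 9.11, 9.78 and 10.31 in D and 9.53, 9.50 and 10.02 in D+P. All 6 diabetic hearts were below all 6 others. The change was -1.33 in D against C (SE 0.29, adjusted p 0.237), -1.46 for D+P against C+P (SE 0.29, adjusted p 0.186) and -1.40 averaged (SE 0.21, adjusted p 0.0423), which leaves 0.38 of the non-diabetic level. The adjusted p lies close to the threshold: the call was kept without D 3 or without D+P 1 and lost without any of the other 10 arrays, with averaged changes from -1.53 to -1.24 and an adjusted p of at most 0.155. It was also lost without the 3 arrays of slide column 1 (-1.16, adjusted p 0.0803), with the replicate block (adjusted p 0.127) and with no filter on dim probes (adjusted p 0.0629). Between D+P and D this probe differed by -0.05 (adjusted p 0.957).

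The other 3 probes of *Myl1* were lower too on average, none past the threshold. The brightest, which matches the same mRNA, read 11.65, 11.74 and 11.30 on C arrays, 11.39, 11.27 and 11.58 on C+P arrays, 10.66, 10.42 and 10.91 on D arrays and 11.01, 10.23 and 6.61 on D+P arrays. It too parted the diabetic from the other hearts, but D+P 3 was far below all other arrays here and not on the neighbouring probe, and without it the averaged change of -1.51 (SE 0.60, adjusted p 0.391) became -0.85. The third probe, to another *Myl1* mRNA, was well above background on all C and C+P arrays, on 0 of 3 D arrays and on 1 of 3 D+P arrays, which makes C at least 1.39-fold higher than D (adjusted p 0.429), with measured means of 5.87 and 4.49. The dimmest probe stood at -0.47 (adjusted p 0.591).

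*Tnni2* and *Tnnt1* lay lower in both diabetic groups as well. *Tnni2*, the fast troponin I (chromosome 7, 149630241 to 149630300, mm9), read 7.80, 8.17 and 7.84 on C arrays, 8.26, 8.08 and 8.11 on C+P arrays, 6.92, 6.77 and 7.57 on D arrays and 7.75, 6.80 and 6.38 on D+P arrays. All diabetic arrays were below the non-diabetic arrays of their pair, and the averaged change was -1.01 (SE 0.23, adjusted p 0.155). *Tnnt1*, the slow troponin T (chromosome 7, 4456265 to 4456324, mm9), read 11.19, 11.02 and 11.10 on C arrays, 10.90, 10.98 and 10.95 on C+P arrays, 10.32, 10.38 and 10.60 on D arrays and 10.78, 10.37 and 10.03 on D+P arrays. It showed the same separation, with an averaged change of -0.61 (SE 0.13, adjusted p 0.142), and so did its second probe at -0.82 (SE 0.20, adjusted p 0.194). Without D+P 1 both genes passed the threshold (*Tnni2* -1.20, adjusted p 0.0317, and *Tnnt1* -0.71, adjusted p 0.042), while normexp background correction put *Tnni2* at -0.54 (adjusted p 0.328). Neither gene passed with any of the other 11 arrays left out.

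**Figure D3:**
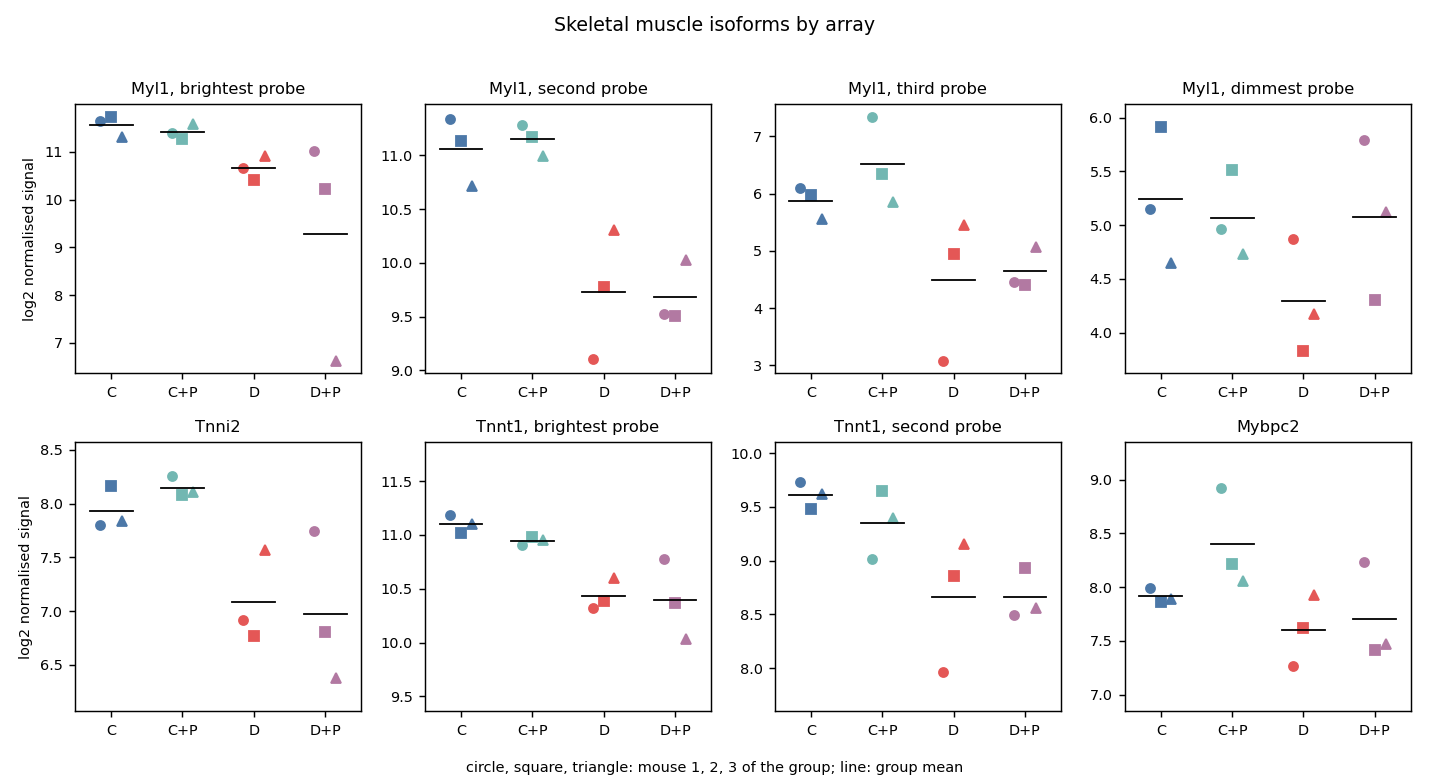
Level of skeletal muscle isoforms on each array (log2 normalised signal, 3 mice a group, lines at the group means) for all 4 *Myl1* probes, *Tnni2*, 2 *Tnnt1* probes and *Mybpc2*. The diabetic groups lie below the others on the first 3 *Myl1* probes and on *Tnni2* and *Tnnt1*, and D+P 3 alone is at 6.61 on the brightest *Myl1* probe.

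The other genes of the class had smaller differences on their brightest probes. *Mybpc2*, the fast myosin-binding protein C, was at -0.50 (adjusted p 0.397), *Tnnc2*, the fast troponin C, at -0.18 and *Tpm3* at -0.08. All 5 *Tpm3* probes were lower in both pairs, in D against C from -0.03 on the brightest to -0.81. *Tnnt3*, the fast troponin T, was at -0.05 on the only 1 of its 3 probes that was tested, and at 0.02 without D+P 1. In D against C *Tnnt3* was at 0.29. *Tpm2*, the β-tropomyosin, was the 1 gene above 0, at 0.13 (adjusted p 0.760). Of the 9 fast skeletal muscle markers, *Atp2a1* and *Ryr1* were well above background on 12 of 12 arrays and *Pvalb* on 11, while *Myh4* was so on 4, *Mylpf* on 1, and *Myh1*, *Myh2*, *Actn3* and *Casq1* on 0. The mean level of the 7 tested markers ran from 5.72 to 5.86 on C arrays, 5.66 to 6.00 on C+P arrays, 5.70 to 6.01 on D arrays and 5.72 to 5.95 on D+P arrays, and their median averaged change was 0.04, with 4 of 7 above 0 and 0 past the threshold.

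Promoters of *Myl1* and *Tnnt1* are shown in the same way because the genes were lower together (RefSeq, GRCm38.p6, minus strand, chr1:66945007-66945306 and chr7:4515926-4516225), with M-CAT and TATA matches in capitals. For *Tnni2* the table used here holds no window.

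Myl1: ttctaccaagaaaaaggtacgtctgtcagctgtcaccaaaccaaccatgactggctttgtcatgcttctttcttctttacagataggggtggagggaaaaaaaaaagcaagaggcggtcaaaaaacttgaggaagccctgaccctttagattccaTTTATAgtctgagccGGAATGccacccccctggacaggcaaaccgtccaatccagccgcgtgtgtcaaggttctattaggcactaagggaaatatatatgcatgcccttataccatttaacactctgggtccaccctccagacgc
Tnnt1: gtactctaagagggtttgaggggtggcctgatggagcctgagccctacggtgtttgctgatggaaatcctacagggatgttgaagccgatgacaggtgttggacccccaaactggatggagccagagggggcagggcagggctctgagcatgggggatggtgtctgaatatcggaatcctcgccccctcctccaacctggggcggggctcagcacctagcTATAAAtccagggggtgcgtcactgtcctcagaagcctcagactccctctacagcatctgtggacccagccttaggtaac

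The *Tnnt1* window has its TATA letters at position -30 and no M-CAT match, whereas *Myl1* has an M-CAT match at -80 and the TATA letters on the other strand at -95. An E-box, CANNTG, the motif of myogenic regulators, is found in both windows and in 72.3% of all.

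Z-disc genes gave no common direction, with 6 of 13 above 0, 7 below and a median change of -0.05. *Myot*, the actin-bundling myotilin, was lowest and is given in full after its values were seen. It read 10.47, 10.46 and 10.34 on C arrays, 10.40, 10.84 and 10.06 on C+P arrays, 10.20, 9.87 and 10.11 on D arrays and 9.76, 9.56 and 9.76 on D+P arrays. The diabetic arrays were below the others in both pairs, with an averaged change of -0.55 (SE 0.14, adjusted p 0.200). *Xirp2*, *Csrp3* and *Flnc*, which encode proteins of the Z-disc and of its repair and signalling, were at -0.33, -0.33 and -0.25, and *Nexn* at -0.20. *Csrp3* was at -0.16 without D+P 1 and *Nexn* at -0.09 without D+P 3.

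Higher in the class were *Des* and *Xirp1*. *Des*, the intermediate filament protein around Z-discs, read 11.59, 11.39 and 11.36 on C arrays, 12.10, 11.41 and 10.92 on C+P arrays, 11.92, 11.88 and 11.86 on D arrays and 11.15, 11.69 and 11.98 on D+P arrays. D lay above C, the pargyline groups overlapped, and the averaged change was 0.29 (SE 0.20, adjusted p 0.622), with 0.15 without C+P 3 and 0.44 without C+P 1. *Xirp1*, an actin-binding Xin protein, read 9.70, 9.71 and 9.72 on C arrays, 10.08, 10.09 and 10.07 on C+P arrays, 10.02, 10.01 and 9.97 on D arrays and 10.03, 10.36 and 10.49 on D+P arrays. All 9 arrays of treated or diabetic mice were above all C arrays, and the averaged change was 0.25 (SE 0.10, adjusted p 0.397), or 0.43 with normexp and 0.12 with values not positive and significant set to missing. *Ldb3*, *Myoz2* and *Ankrd1* were at 0.19, 0.17 and 0.04, *Actn2*, the α-actinin that forms the Z-disc lattice, at 0.01, and *Nebl* at -0.10.

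**Figure D4:**
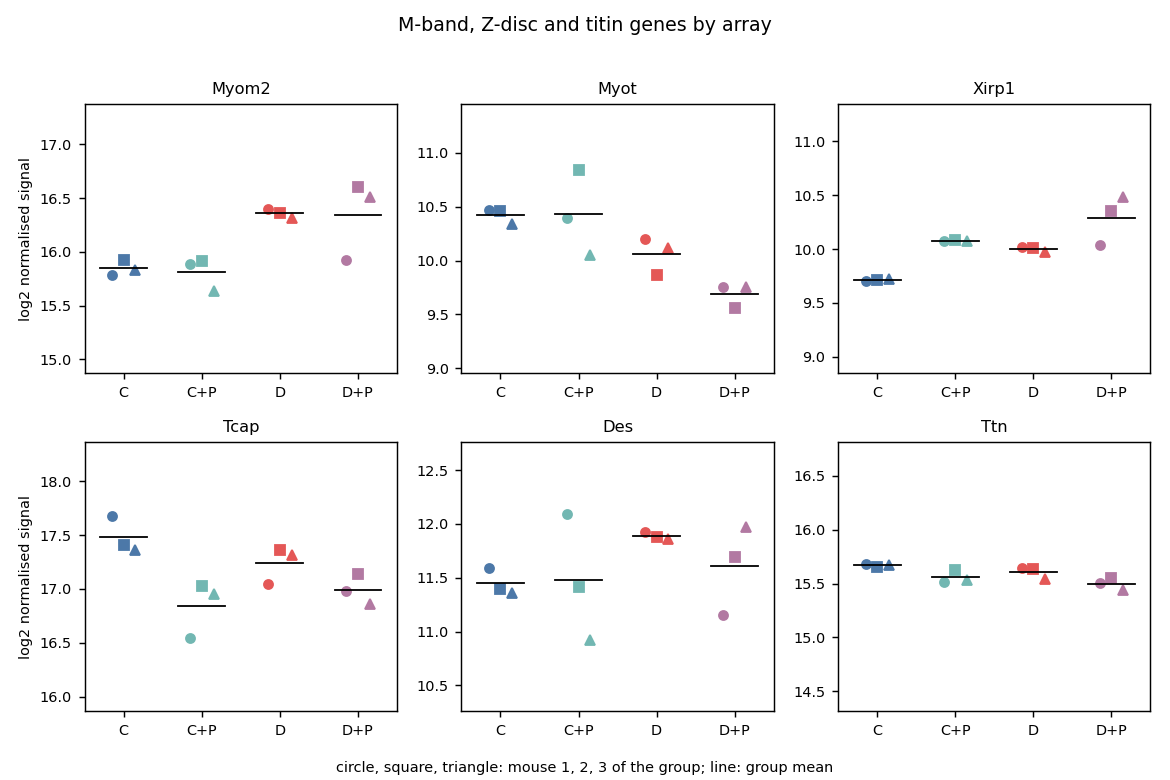
Level of *Myom2*, *Myot*, *Xirp1*, *Tcap*, *Des* and *Ttn* on each array (log2 normalised signal, brightest probe, 3 mice a group, lines at the group means). *Myom2* is higher and *Myot* lower in the diabetic group of each pair, *Xirp1* is lowest on the 3 C arrays, and *Ttn* on this probe differs by under 0.2 between any group means.

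Pargyline contrasts set one slide against the other, so each value below holds the slide as well. In C+P against C, 2 of the 42 genes had an unadjusted p under 0.05 (4.43% of all probes did), and 14 did not overlap (15.4%). *Tcap*, the titin cap of the Z-disc, read 17.68, 17.41 and 17.36 on C arrays, 16.55, 17.03 and 16.95 on C+P arrays, 17.04, 17.36 and 17.31 on D arrays and 16.98, 17.14 and 16.86 on D+P arrays. It was lower in C+P than in C without overlap, by a change of -0.64 (SE 0.18, adjusted p 0.824), which was -0.31 with normexp and -0.38 under 75th percentile scaling. *Xirp1* was higher by 0.37 (SE 0.14), with 0.01 as the SD in both groups, and passed in the methods' t-test (adjusted p 0.0212) but not in the limma fit (adjusted p 1). *Myl7* stood at 0.80 and *Acta1* at 0.71, with an adjusted p of 1 for each, but *Myl7* was at 0.21 with normexp and *Acta1* at 0.38 without C+P 1, so the order of sizes did not hold.

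In D+P against D, *Myl7*, *Tnni1* and *Tpm2* were the 3 genes that had an unadjusted p under 0.05 (13.3% of all probes) and 8 did not overlap (17%). Largest in size over all arrays were the differences of *Myl1* (-1.38, adjusted p 0.493), which became -0.04 without D+P 3, of *Myl7* (-1.18, adjusted p 0.271) and of *Myh7* (0.81, adjusted p 0.516). Without D+P 3 *Myl7* was at -0.69, and *Myh7* ran from 0.40 without D 2 to 1.44 without D+P 1. On average *Myh7* was no lower in diabetic hearts with pargyline than in those without it, and the groups overlapped.

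In the interaction, the difference between both diabetes contrasts, 3 genes reached an unadjusted p under 0.05 (7.03% of all probes). They were *Myl7* (-1.98, SE 0.57, adjusted p 0.595), *Acta1* (-1.52, SE 0.58, adjusted p 0.689) and *Tnnt3* (-0.68, SE 0.26, adjusted p 0.689), the last named for its place among the 3. In each group only 1 of 3 arrays measured *Myl7* well above background, and its interaction was -0.64 with normexp. *Myh7* stood at 0.99 (SE 0.74, adjusted p 0.780) and *Myl1* at -1.23 (SE 1.20, adjusted p 0.832, and 0.11 without D+P 3), so no difference of these effects with pargyline was shown.

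Several probes of a gene often disagreed. Of 24 genes with at least 2 tested probes, 12 had probes of both signs in diabetes averaged over pargyline, and 18 had them in D+P against D. The probes differ in the transcript they were designed to: 65 target curated RefSeq mRNAs of all 42 genes and 19 target other transcripts (Ensembl models, cDNA clones and predicted RNAs) of 13 genes, a split that was made after the values were seen. In D+P against D the 19 had a median change of 0.49, with 14 higher, and the 65 one of -0.04, with 27 higher. The interaction, which contains the same D and D+P arrays, had medians of 0.51 and -0.07. Over all tested probes of these kinds the medians in D+P against D were 0.06 and -0.02.

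Such probes of *Tnnt2*, *Tpm1*, *Actn2* and *Myom1* show the pattern. An Ensembl transcript of *Tnnt2* read 13.55, 13.81 and 13.60 on C arrays, 13.17, 13.71 and 13.80 on C+P arrays, 13.57, 12.81 and 11.87 on D arrays and 13.85, 13.53 and 13.88 on D+P arrays. A cDNA of *Actn2* read 6.59, 7.06 and 7.30 on C arrays, 7.89, 7.17 and 8.38 on C+P arrays, 6.05, 5.95 and 4.99 on D arrays and 7.56, 6.63 and 6.39 on D+P arrays, and was above background on 1 of 3 D arrays. D 3 was the lowest array on both and was also lowest on the cDNA probes of *Tpm1* (8.33) and *Myom1* (6.71), whereas the mRNA probes of these 4 genes did not have D 3 as their lowest array. All 4 had an adjusted p of at least 0.243 in D+P against D.

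**Figure D5:**
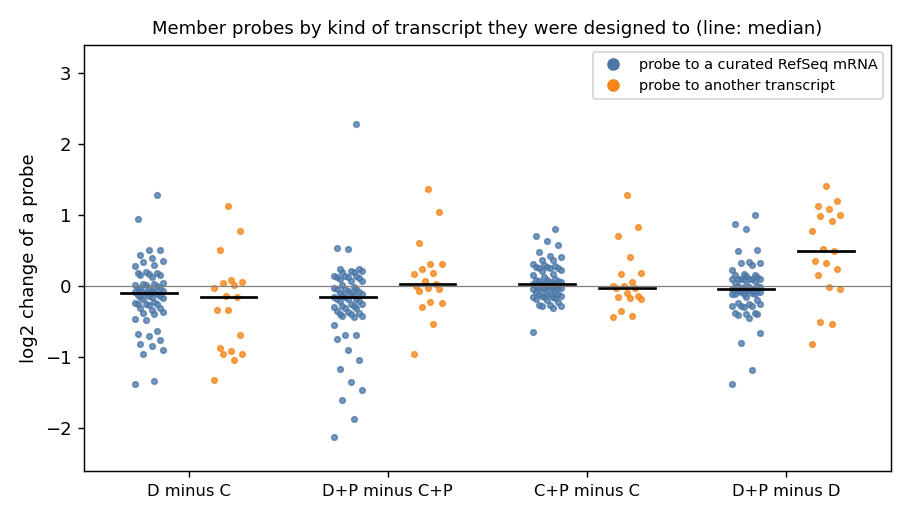
Change of every tested member probe in 4 comparisons (log2), with the 65 probes to curated RefSeq mRNAs beside the 19 probes to other transcripts and lines at the medians. In D+P minus D the medians are -0.04 and 0.49, and in the other 3 comparisons drawn the 2 kinds have medians within 0.2 of each other. The interaction, not drawn, has medians of -0.07 and 0.51.

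Among 24 further sarcomere genes, of which 23 were tested, and 20 regulators and chaperones of the sarcomere, 0 passed an adjusted p of 0.05 in any contrast in the limma fit. In diabetes averaged over pargyline 2 of the 23 and 3 of the 20 had an unadjusted p under 0.05, as did 11.4% of all tested probes. *Obsl1*, an obscurin-like linker at the M-band, was largest in size in the first list at -0.53 (SE 0.12, adjusted p 0.148), without overlap in either pair, followed by *Mybpc1*, the slow myosin-binding protein C, at 0.50 (adjusted p 0.585), on a probe that was well above background on 3 of 12 arrays. *Tbx5*, a transcription factor of the heart, was largest in the second at 0.52 (SE 0.15, adjusted p 0.253), also without overlap, followed by *Unc45b*, a myosin chaperone, at -0.44 (adjusted p 0.335). The median change was -0.09 in the first list and -0.04 in the second, and *Tbx5* also stands in the atrial marker list.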

How the data were processed

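Per the file headers, the authors scanned 1-colour Agilent arrays with Feature Extraction 12.0.0.7 and deposited background-subtracted intensities; the methods name another version. The deposited series table of intensities served only as an alternative. Processed intensities without outlier flags were log2-transformed, quantile-normalised and averaged over the spots of a probe. A probe was tested if it was positive and significant against background on 50% or more of arrays in all 4 groups, and the remaining values that were not (2.03% of tested values) were kept. The 4 group means were fitted with limma 3.58.1 in R 4.3.3, with p-values adjusted by Benjamini-Hochberg over all 30859 tested probes, and 3 arrays against 3 allow no exact two-sided p below 0.1. The number of arrays limits the precision. A gene was read from its brightest probe. Probe positions are in mm9, and the part of the transcript they match is not given in the sources used here. The methods' t-test, other scalings, filters, blocks and left-out arrays were alternatives. Full values were given for members past the threshold, for the 4 largest rises and falls in averaged diabetes, the 3 largest in the other contrasts, and 9 fixed isoforms. The fit was tested on simulated data. Members and lists were chosen with earlier results of these data known.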

Additional observations from a re-analysis of the deposited data

How the results depend on the processing

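With 3 arrays a group, counts of calls moved with the setting. The fit over all arrays called 1 member probe, in diabetes averaged over pargyline, and this count was 0 with no filter on dim probes, 0 with a replicate block and 17 with array weights (16, 4 and 2256 over all probes, against 33). Leaving out 1 array gave 0 to 5, with 5 without D+P 1 (*Myh7*, *Myl1*, *Myom2*, *Tnni2* and *Tnnt1*), where 113 of all probes were called. The count in D against C was 17 with array weights (2936 over all probes). For D+P against C+P it was 7 with array weights (396 over all probes), 1 without the 3 arrays of slide column 1 (13 over all probes) and 0 to 1 with 1 array left out, the 1 without D+P 1 (33 over all probes). In C+P against C it was 3 with array weights (2259 over all probes) and 1 by the methods' t-test (1 over all probes). The estimation of array weights stopped before it converged. The alternative without slide column 1 was chosen after seeing the data. The causes of these shifts were not tested.

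The replicate numbers showed no sign of pairing the arrays. The correlation of deviations between arrays of one number ran from -0.20 to 0.20 and exceeded 0.1 in 4 of 18 pairs. Between arrays of different number it ran from -0.19 to 0.21 and exceeded 0.1 in 8 of 36 pairs. Deviations from means of 3 arrays cannot settle whether the numbers pair mice. With the replicate block the *Myl1* probe had an adjusted p of 0.127.

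Signs turned only for values that had not passed the threshold. *Acta1* in D against C was 0.042 under 75th percentile scaling, 0.226 without slide column 1 and -0.405 to 0.225 with 1 array left out. With normexp background correction the averaged change was -0.055 for *Myh6*, -0.092 for *Actc1*, -0.061 for *Myl2* and 0.048 for *Tnni1*. *Actc1* was -0.0094 with values not positive and significant set to missing and -0.053 with array weights, which put *Myl7* at 0.366. *Tnni1* was 0.014 without slide column 1. The mean of all probes gave -0.084 for *Myh6*, 0.011 for *Tnni3* and, for D+P against C+P, -0.197 for *Des*. Leaving out 1 array gave ranges of -0.024 to 0.088 for *Actc1*, -0.196 to 0.197 for *Myl7* and -0.092 to 0.091 for *Tnni1* averaged, of -0.149 to 0.440 for *Des* in D+P against C+P, and of -2.09 to 0.111 for *Myl1* in the interaction. The balance of *Myl7* over *Myl2* in D+P against C+P was -1.12, or -0.313 with normexp and -0.550 without D+P 3. Probes near background, such as that of *Myl7*, carry little information.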
